A study of Mus musculus with 16 samples.

Results

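The genes of the circadian clock were followed in mouse liver: Arntl, also written Bmal1, Clock, Per1, Per2, Per3, Cry1, Nr1d1, Dbp, Tef and Ciart. They were chosen by name, with the brightest probe of each gene over all arrays, and 7 of the 10 could be paired with a probe and were tested. Clock, Tef and Ciart were not analysed here. The 7 stand among 31512 genes tested, and each was well above background on all 16 arrays except Arntl.

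Liver RNA of 16 male mice aged 6 weeks was hybridised to 1-colour arrays, 1 array per mouse, with 4 mice of each of 4 genotypes of CerS2, the gene of ceramide synthase 2. The genotypes are CerS2 H/A (condition HA), Del (condition delHox), Flox (condition delneo) and WT, and all mice shared a mixed background of 75% C57BL/6 and 25% SV129. The labels do not spell out the alleles, and they name no promoter, Cre line or further treatment. They give neither the time of day at which a mouse was killed nor its feeding state. The questions are whether clock genes differed between the genotypes and, since their levels change over the day, how far they differed between mice of the same genotype.

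In the clock, the protein of Arntl pairs with that of Clock or Npas2 and switches on genes that carry E-boxes, among them the Per and Cry genes, Nr1d1 and Dbp. The period and cryptochrome proteins return to block that pair, and the receptors encoded by Nr1d1 and Nr1d2, called REV-ERBs, repress Arntl through ROR elements. The proteins of Dbp, Tef and Hlf bind D-boxes and drive rhythmic output, and in liver the clock times much of sugar, fat, bile acid and drug metabolism. Arntl and Dbp peak at about opposite times of day in mouse liver.

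Promoter windows of 3 of these genes are shown because they hold letters that these factors are known to bind. They are the 250 bases before the transcription start in RefSeq (GRCm38.p6), read 5′ to 3′ on the strand of the gene, with matches in capitals. Per3 lies at chr4:151044666-151044915 on the minus strand, Cry1 at chr10:85185055-85185304 on the minus strand and Per1 at chr11:69098699-69098948 on the plus strand.
Per3: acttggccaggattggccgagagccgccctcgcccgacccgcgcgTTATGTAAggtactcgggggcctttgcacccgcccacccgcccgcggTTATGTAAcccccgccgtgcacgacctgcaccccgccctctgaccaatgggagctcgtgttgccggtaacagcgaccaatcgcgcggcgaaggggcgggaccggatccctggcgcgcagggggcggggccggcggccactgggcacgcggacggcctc
Cry1: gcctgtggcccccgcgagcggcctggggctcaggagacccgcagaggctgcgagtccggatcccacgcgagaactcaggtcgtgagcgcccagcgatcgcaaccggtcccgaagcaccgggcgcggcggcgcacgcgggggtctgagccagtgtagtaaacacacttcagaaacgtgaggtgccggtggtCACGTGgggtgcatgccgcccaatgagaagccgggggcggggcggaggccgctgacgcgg
Per1: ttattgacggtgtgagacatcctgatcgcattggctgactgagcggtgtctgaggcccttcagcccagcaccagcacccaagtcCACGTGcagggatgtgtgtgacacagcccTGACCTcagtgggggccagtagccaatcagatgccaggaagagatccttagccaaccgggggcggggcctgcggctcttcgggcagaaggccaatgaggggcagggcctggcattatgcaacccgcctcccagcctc
The capitals mark the E-box CACGTG, the D-box TTATGTAA or TTACGTAA and the ROR element core AGGTCA, each searched on both strands as an exact match. The Per3 window held 2 D-boxes, which begin 205 and 158 bases before the start. The Cry1 window held an E-box 60 bases before the start, and the Per1 window shown an E-box at 166 bases and, on the other strand, the ROR core at 137 bases. A second Per1 start in the table, with its window at chr11:69099902-69100151, held none of these. Of 32851 such windows in the RefSeq table, 6.02% held the E-box, 0.93% a D-box and 14.02% the ROR core. The windows of Dbp, Nr1d1 and Arntl held none of these exact letters, and these windows cover only the bases named.

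Levels below are the authors' log2 values, in which a step of 1 is a doubling of the signal, and levels of different probes are not set against each other. Each array had 51.6% to 65.2% of its spots well above background, with no saturated spot. Markers of hepatocytes were well above background on all 16 arrays for all 9 genes tested. Their array means on the log2 scale were 14.18 to 14.41 in H/A, 14.05 to 14.33 in Del, 14.37 to 14.43 in Flox and 14.41 to 14.51 in WT. All Del means thus lay below those of Flox and WT. Markers of macrophages had array means of 7.77 to 9.04 in H/A, 7.91 to 8.20 in Del, 6.86 to 7.17 in Flox and 6.44 to 7.39 in WT. In whole liver RNA, fewer cells of a type and less RNA per cell cannot be told apart. No probe could be paired with Cers2, so the genotype labels were not checked against the engineered gene. The arrays were on 2 slides, and each slide held arrays of every genotype, but unevenly. Slide 1 held 3 H/A and 1 Del arrays, slide 2 held 1 H/A and 3 Del, and each held 2 Flox and 2 WT. Values within a slide therefore rest on 1 array for Del on slide 1 and for H/A on slide 2. The labels do not say whether litters or cages were shared, so p-values measure the spread between these 16 mice.

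Dbp, the D-box binding output factor, had the widest range of the 7 genes, and its low values fell on single mice. Its values were 11.83, 11.65, 11.11 and 9.90 in H/A mice and 6.75, 10.21, 11.69 and 11.87 in Del mice. They were 11.11, 10.34, 11.20 and 11.44 in Flox mice and 11.74, 8.40, 11.74 and 11.42 in WT mice. A Del liver (replicate 1) and a WT liver (replicate 2) lay below all others, and the groups overlapped. From the lowest to the highest liver the range was 5.12 on the log2 scale, or 34.8-fold. Both low arrays were on slide 1, with 51.6% and 57.2% of their spots well above background. The second, dimmer probe of Dbp followed the first over the 16 arrays with r = 0.954.

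Per2, a core repressor of the clock, was low in the same livers. Its log2 values were 8.79, 8.30, 8.08 and 7.55 in H/A and 5.49, 7.79, 8.12 and 8.99 in Del. In Flox they were 7.86, 7.65, 8.77 and 8.49, and in WT 8.26, 6.22, 8.66 and 8.58. The lowest values were again Del replicate 1 and WT replicate 2, the groups overlapped, and the range was 3.5, or 11.3-fold. Per3, another period gene, had its lowest value, 5.28, in WT replicate 2, while Del replicate 1 lay at 6.15, well inside the other values. Its group ranges were 5.53 to 6.62 in H/A, 5.61 to 6.57 in Del, 5.55 to 6.81 in Flox and 5.28 to 6.5 in WT.

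Arntl, the activator, took its highest values where Dbp was low. Its log2 values were 3.17, 3.37, 3.64 and 5.73 in H/A mice, 5.54, 4.99, 2.93 and 2.53 in Del mice, 3.03, 4.47, 4.15 and 4.12 in Flox mice and 4.34, 6.26, 2.61 and 2.97 in WT mice. The 3 highest livers were H/A replicate 4, Del replicate 1 and WT replicate 2, and the groups overlapped. The probe was dim, and only 9 of 16 arrays were well above background: 2 of 4 in H/A, 2 of 4 in Del, 3 of 4 in Flox and 2 of 4 in WT. The low values therefore have no measured order among themselves.

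**Figure D1:**
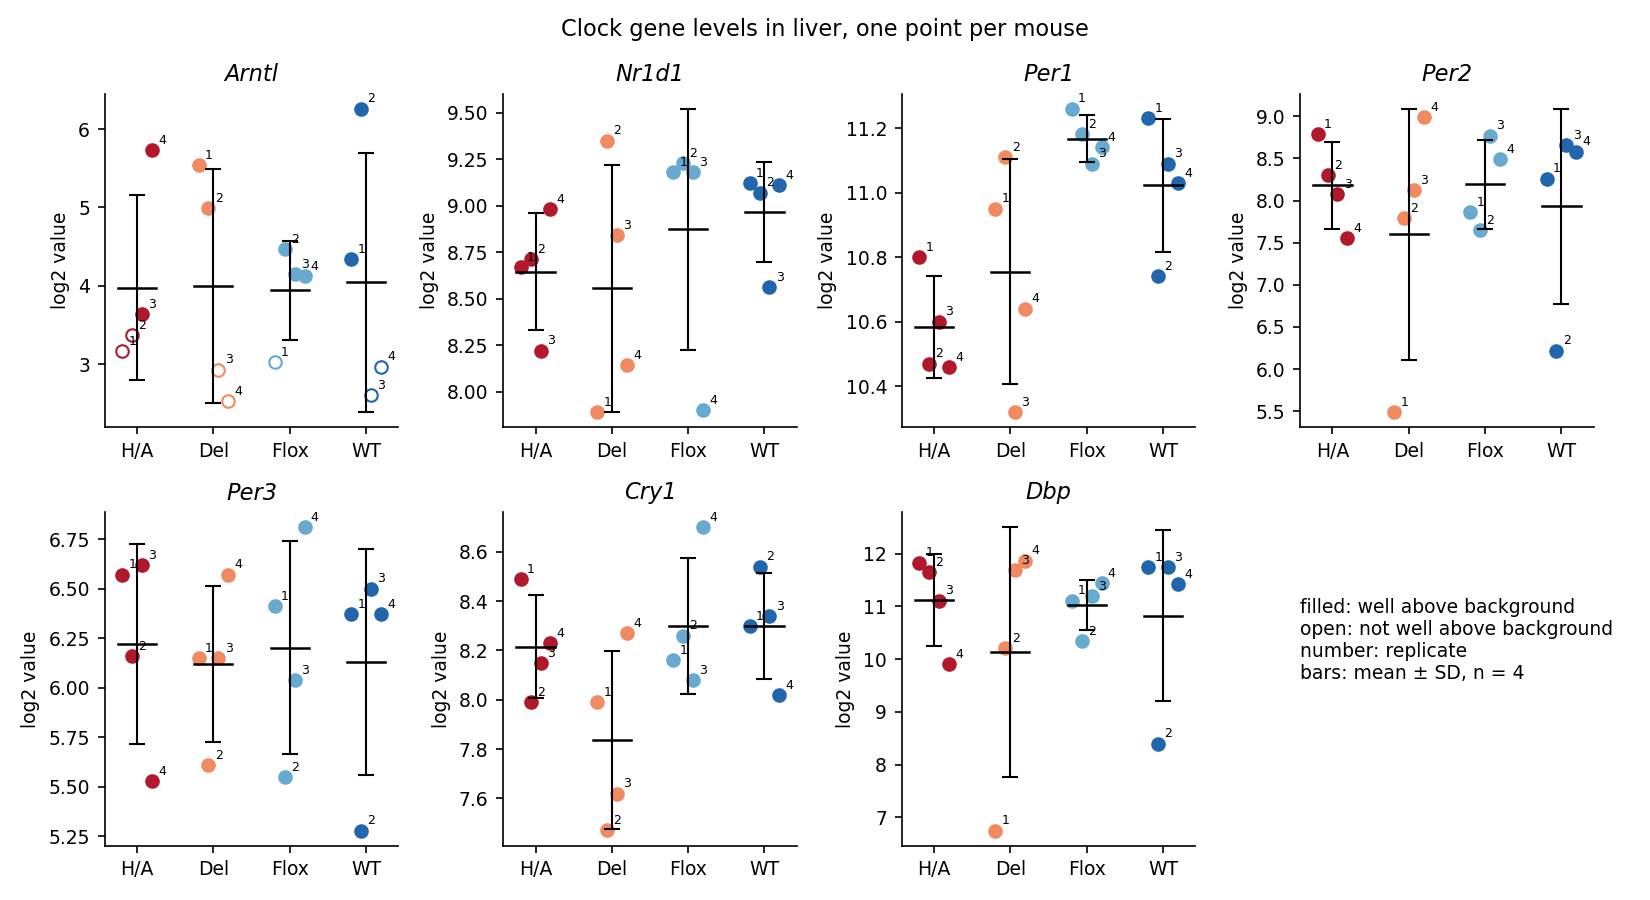
Log2 value of each clock gene (vertical axis, scale of its own per gene) on every array, by genotype on the horizontal axis. Points are mice, numbered by replicate, open where the probe was not well above background, and bars are the mean ± SD (n = 4). Del replicate 1 and WT replicate 2 are the lowest Dbp points, at 6.75 and 8.40, and the Per1 points of H/A all lie below those of Flox.

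Per1, the period gene that also responds quickly to hormones, had a range of 0.94 on the log2 scale. It had 10.80, 10.47, 10.60 and 10.46 in H/A mice, 10.95, 11.11, 10.32 and 10.64 in Del mice, 11.26, 11.18, 11.09 and 11.14 in Flox mice and 11.23, 10.74, 11.09 and 11.03 in WT mice. Every H/A liver lay below every Flox liver, while H/A and WT overlapped at WT replicate 2. Cry1, a cryptochrome repressor, had 8.49, 7.99, 8.15 and 8.23 in H/A mice, 7.99, 7.47, 7.62 and 8.27 in Del mice, 8.16, 8.26, 8.08 and 8.70 in Flox mice and 8.30, 8.54, 8.34 and 8.02 in WT mice. Its 2 lowest livers were Del replicates 2 and 3, and all groups overlapped.

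Nr1d1, the gene of the repressor REV-ERB alpha, had 8.67, 8.71, 8.22 and 8.98 in H/A and 7.89, 9.35, 8.84 and 8.14 in Del. It had 9.18, 9.23, 9.18 and 7.90 in Flox and 9.12, 9.07, 8.56 and 9.11 in WT. Del replicate 1 and Flox replicate 4 were lowest, and Flox replicate 4 was not low for Dbp, at 11.44. Nr1d2, the gene of REV-ERB beta, was lowest in Del replicate 1 and WT replicate 2, at 6.78 and 7.21, as Dbp was.

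The spread between mice of a genotype was set beside that of all genes tested. The SD within genotypes, pooled over the 4 groups, was 1.52 on the log2 scale for Dbp, 1.30 for Arntl and 1.01 for Per2, against a median of 0.266 over all genes. Dbp exceeded 99.8% of all genes in this spread, Arntl 99.6% and Per2 98.8%. Nr1d1 (0.509) exceeded 87.2%, Per3 (0.507) 87.1%, Cry1 (0.272) 52.1% and Per1 (0.220) 33.0%. Among genes in the same decile of mean signal Per1 exceeded 53.4% and Cry1 74.2%. Among other clock genes, Bhlhe40 (0.505), the gene of the repressor DEC1, and Nr1d2 (0.464) exceeded 86.9% and 83.7%. Npas2 (0.136) and Btrc (0.115), the gene of an F-box protein that marks period proteins for breakdown, exceeded only 4.9% and 2.1%.

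**Figure D2:**
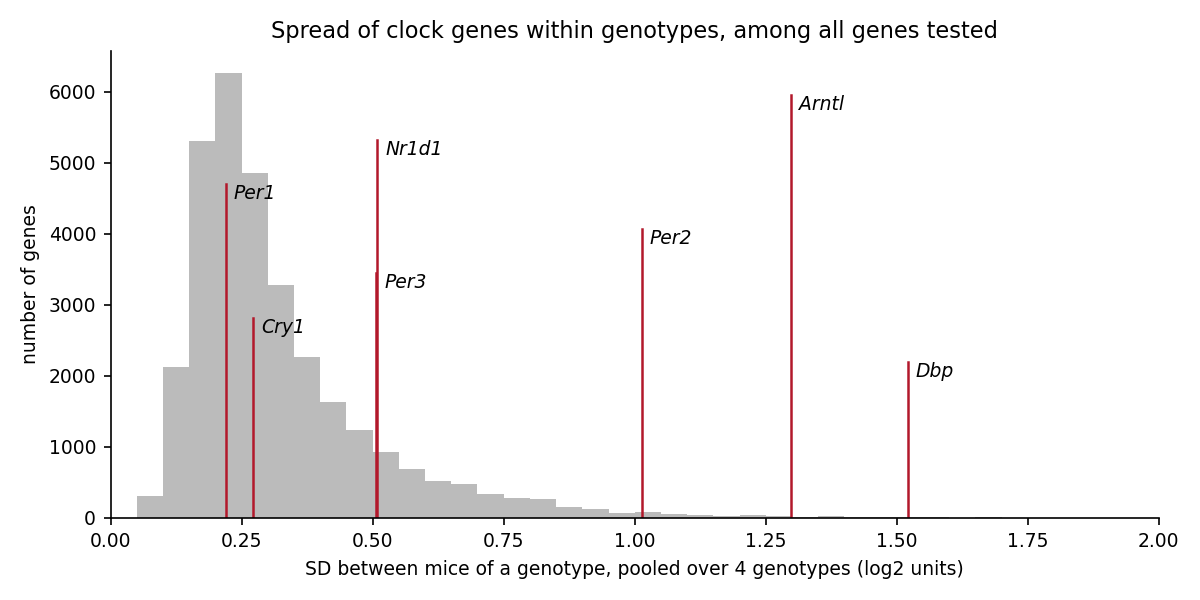
Number of genes (vertical axis) by the SD between mice of a genotype, pooled over the 4 genotypes (horizontal axis, log2 units), for all 31512 genes tested. Red lines place the 7 clock genes, their heights carry no value, and genes with an SD beyond the axis are not drawn. Dbp at 1.52, Arntl at 1.30 and Per2 at 1.01 lie far above the median of 0.266.

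The clock genes moved together across livers in part. Arntl ran opposite to Dbp over the 16 livers (r = -0.802, permutation p = 0.0001, adjusted p = 0.0006 over 6 relations), with r = -0.756 without H/A replicate 4 and WT replicate 2, the livers farthest from its median. Within the slides r was -0.835 and -0.941, and -0.834 after the genotype means were taken out. Arntl also ran opposite to Per2 (r = -0.77, adjusted permutation p = 0.00123, r = -0.708 without those 2 livers) and Per3 (r = -0.735, adjusted permutation p = 0.0031, -0.519 without them). Within slides 1 and 2 these were -0.856 and -0.767 for Per2, and -0.742 and -0.737 for Per3. The correlations of Arntl with Per1 (0.033), Cry1 (0.062) and Nr1d1 (0.146) had adjusted permutation p from 0.882 to 0.900. These r use the 7 Arntl values that were not well above background. With those 7 tied at the lowest rank, rho was -0.774 with Dbp (adjusted permutation p = 0.00534 over 6 relations), -0.731 with Per2 (0.00612) and -0.66 with Per3 (0.0135). The second Arntl probe, well above background on 10 of 16 arrays, had r = -0.625 with Dbp, -0.589 with Per2 and -0.506 with Per3. The 2 Arntl probes, both dim, followed each other only in part (r = 0.524 over the 16 arrays).

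Dbp and Per2 varied together from liver to liver (r = 0.96, adjusted permutation p = 6e-05 over 6 relations, rho = 0.879). Without Del replicate 1 and WT replicate 2 r was 0.806, and within the slides it was 0.988 and 0.844. With Per3, Dbp had r = 0.56 (adjusted permutation p = 0.0426, rho = 0.632), which was 0.812 without those 2 livers and 0.513 and 0.868 within the slides. Dbp with Nr1d1 had r = 0.121 and rho = -0.279, with r = 0.435 within slide 1, -0.558 within slide 2 and -0.467 without the 2 livers. Dbp with Cry1 (0.063) and with Per1 (-0.021) were near 0, and the adjusted permutation p of these 3 was 0.942.

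**Figure D3:**
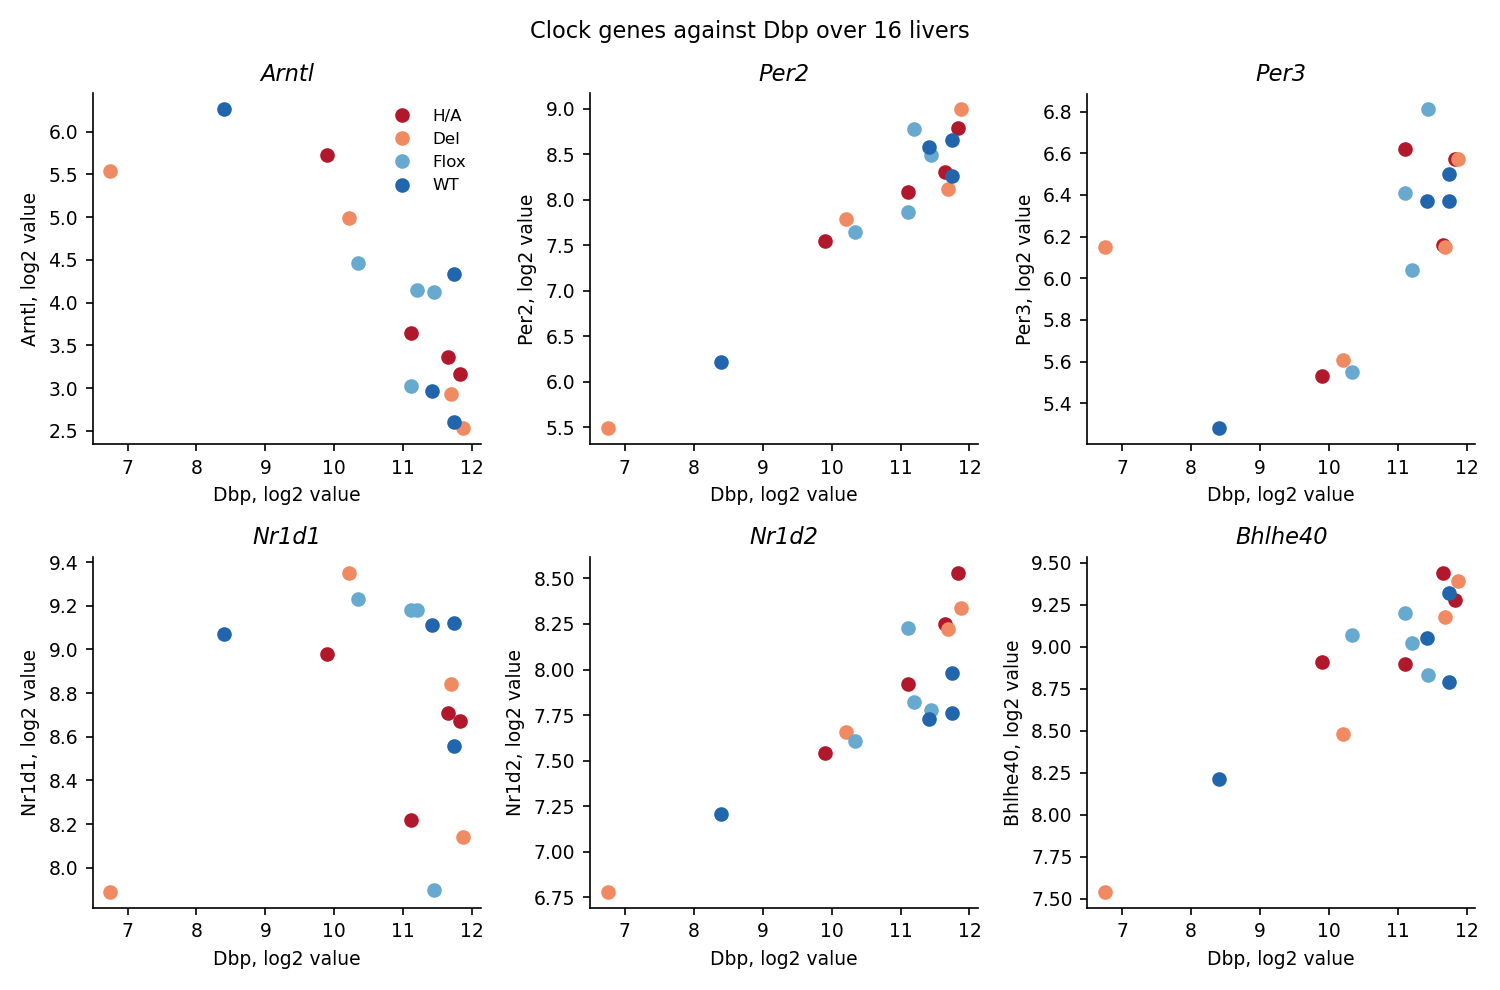
Log2 value of Arntl, Per2, Per3, Nr1d1, Nr1d2 and Bhlhe40 (vertical axes) against the log2 value of Dbp (horizontal axes) in 16 livers, 1 point per mouse, coloured by genotype. Arntl is high where Dbp is low (r = -0.802), while Per2 (0.96), Nr1d2 (0.882) and Bhlhe40 (0.905) are low there, and the 2 livers at the left are Del replicate 1 and WT replicate 2.

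Of the 17678 other genes with a symbol, those most like Dbp by Pearson r over the 16 livers were Gys2 (0.918), the liver glycogen synthase gene, Polg2 (0.911), of the mitochondrial DNA polymerase, and Bhlhe40 (0.905). Atl2 (0.886, above background on only 5 arrays), Nr1d2 (0.882) and Ppargc1b (0.854), a coactivator gene, followed. Gys2 was lowest in the same livers as Dbp, at 10.14 in Del replicate 1 and 10.67 in WT replicate 2, and reached 11.94 in H/A replicate 1. Among the lowest r with Dbp were those of Olfr67 (-0.822), Asap2 (-0.812), Chka (-0.804), the choline kinase alpha gene, Loxl4 (-0.803) and Dpp9 (-0.794). Most like Arntl were Gm30970 (0.822), Dpp9 (0.804), Ube2u (0.787), Tssc4 (0.769), Atp2a2 (0.767), which encodes a calcium pump, and Ttc37 (0.755). These correlations describe the 16 livers and share their RNA, arrays and scaling.

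A list of genes known to cycle in liver was set against Dbp in the same way. Of 16 tested, 8 had r of at least 0.5 with Dbp and 1, the glycogen-targeting gene Ppp1r3c, had -0.556. Among all 17678 genes 4.18% had at least 0.5 and 1.92% had at most -0.5. The list median was 0.437, against 0.031 for all genes. High values were those of Usp2 (0.841), a deubiquitinase gene, Coq10b (0.765), Upp2 (0.739), of uridine breakdown, Por (0.708), of the electron donor of P450 enzymes, Wee1 (0.683), the cell cycle kinase gene, and Alas1 (0.595), which starts heme synthesis. Among the other clock genes, Bhlhe40, Nr1d2 and Hlf (0.675) reached 0.5, Hlf being the D-box factor most related to Dbp and Tef. The count at 0.5 or above was 2 of 12 for fasting genes, 0 of 9 for feeding genes and 0 of 8 for glucocorticoid targets other than Per1. It was 0 of 9 for macrophage markers and 0 of 10 for mitosis genes.

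**Figure D4:**
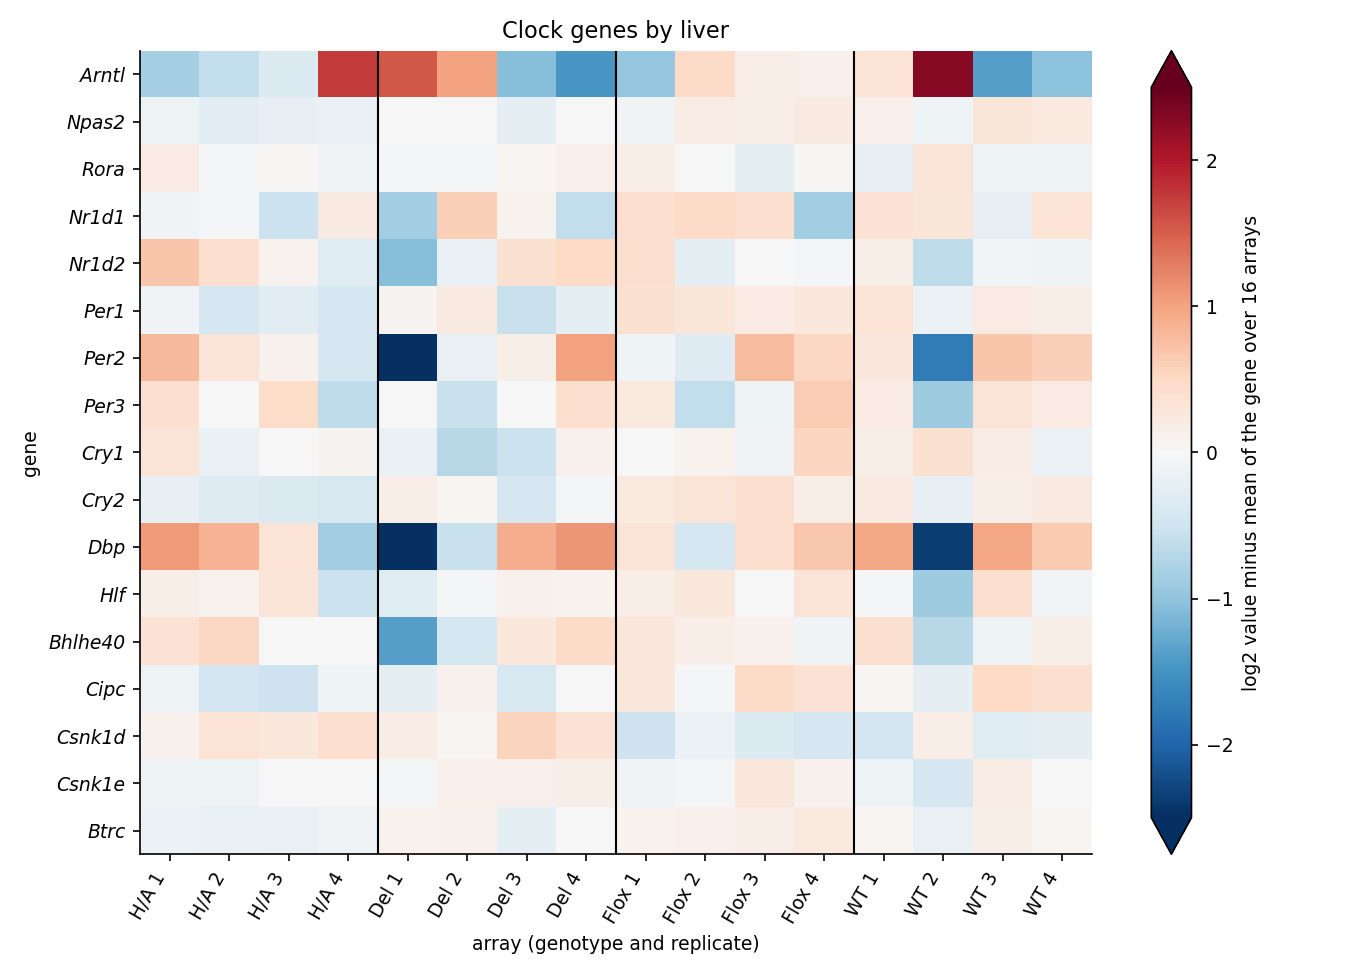
Log2 value of clock genes (rows) on every array (columns, by genotype and replicate) minus the mean of the gene over 16 arrays, with red above and blue below the mean. Del replicate 1 and WT replicate 2 are blue for Dbp, Per2, Nr1d2 and Bhlhe40 and red for Arntl, and the H/A columns are blue for Cry2 and Npas2.

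Genotypes were then compared with limma over all genes. H/A, Del and Flox were each set against the same WT arrays, and Del and H/A against the same Flox arrays, so these comparisons share samples. In H/A against WT 0 of 7 clock genes passed at an adjusted p under 0.05, where 10.04% of all genes did, and 1, Per1, had an unadjusted p under 0.05, where 32.8% of all genes did. The median log2 difference was -0.06 for the 7 and -0.09 for all genes. Per1 averaged 10.58 ± 0.16 in H/A and 11.02 ± 0.21 in WT (SD, n = 4 each), a log2 difference of -0.44 (95% interval -0.78 to -0.10, adjusted p = 0.0849). It passed without WT replicate 2 (-0.53, adjusted p = 0.0332) or Del replicate 3 (-0.44, adjusted p = 0.0429). With the mean over both Per1 probes the difference was -0.15 (limma adjusted p = 0.74). Without scaling between arrays it turned to 0.14, where the median of all genes lay at 0.37. Within the slides the Per1 difference was -0.36 and -0.60.

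In Del against WT 0 of 7 passed, with 13.2% of all genes called, and Cry1 alone had an unadjusted p under 0.05, with 33.1% of all genes. The differences of all 7 were below 0, with a median of -0.33, against -0.11 for all genes. With single arrays left out, 4 of the 7 took values above 0, up to 0.70 for Arntl, 0.43 for Dbp, 0.37 for Per2 and 0.16 for Per3. Cry1 averaged 7.84 ± 0.36 in Del and 8.30 ± 0.21 in WT, a difference of -0.46 (-0.87 to -0.06, adjusted p = 0.107), which passed without Del replicate 4 (-0.61, adjusted p = 0.049). In Flox against WT 0 of 7 passed and 0 had an unadjusted p under 0.05, with 0.0222% and 5.80% of all genes. In H/A against Del the counts were likewise 0 and 0 of 7, with 0.0127% and 7.85% of all genes.

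Del against Flox gave 0 of 7, where 34.8% of all genes were called, with Per1 and Cry1 at an unadjusted p under 0.05, as 49.0% of all genes were. Per1 averaged 10.76 ± 0.35 in Del and 11.17 ± 0.07 in Flox (-0.41, -0.75 to -0.07, adjusted p = 0.0581), and Cry1 7.84 ± 0.36 in Del and 8.30 ± 0.28 in Flox (-0.46, -0.87 to -0.06, adjusted p = 0.0661). Per1 passed without WT replicate 2 (adjusted p = 0.0464) or Del replicates 1 or 2 (0.0485 and 0.0226), and Cry1 without Del replicate 4 (0.0313). With the mean over both Per1 probes Per1 differed by -0.18 (limma adjusted p = 0.639), and without scaling between arrays by -0.19 (0.404). The median difference was -0.41 for the 7 and -0.14 for all genes. Within slides 1 and 2 the difference was -0.27 and -0.42 for Per1, and -0.22 and -0.61 for Cry1.

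H/A against Flox gave the single call among the 7, where 33.2% of all genes were called and 47.2% had an unadjusted p under 0.05. Per1 fell in H/A, at 10.58 ± 0.16 in H/A and 11.17 ± 0.07 in Flox (SD, n = 4 each), a log2 difference of -0.58 (95% interval -0.93 to -0.24, limma adjusted p = 0.016). A count of 1 of 7 is not above the share called among all genes, and in 19.5% of all genes every H/A array lay below every Flox array. The call was kept without each of the 16 arrays in turn, with differences from -0.66 to -0.54. Without scaling between arrays the difference turned to 0.07, where the median of all genes lay at 0.31, against -0.14 with scaling. It was not called within slide 1 (-0.59, adjusted p = 0.141) or slide 2 (-0.65, adjusted p = 0.281), nor with the mean over both Per1 probes (-0.38, adjusted p = 0.315). The dimmer Per1 probe, well above background on 14 of 16 arrays, did not follow the first (r = 0.094 over the 16 arrays). Macrophage markers were higher in H/A than in Flox in 8 of 9 cases and mitosis genes in 9 of 10, and the part of other cells in the Per1 result was not tested.

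Dbp, with the widest spread, gave the widest intervals. It averaged 11.12 ± 0.87 in H/A, 10.13 ± 2.37 in Del, 11.02 ± 0.47 in Flox and 10.83 ± 1.62 in WT (SD, n = 4 each). Against WT, H/A differed by 0.30 (-1.73 to 2.33, adjusted p = 0.845), Del by -0.70 (-2.73 to 1.34, adjusted p = 0.613) and Flox by 0.20 (-1.83 to 2.23, adjusted p = 0.971). Single livers set its sign. Without WT replicate 2, H/A differed from WT by -0.51, Del by -1.5 and Flox by -0.61, and without Del replicate 1 that of Del was 0.43. Del against Flox was -0.90 (-2.93 to 1.14) and turned to 0.23 without Del replicate 1. For Per2 the difference of Del from WT was -0.33 (-1.69 to 1.03), and 0.37 without Del replicate 1.

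**Figure D5:**
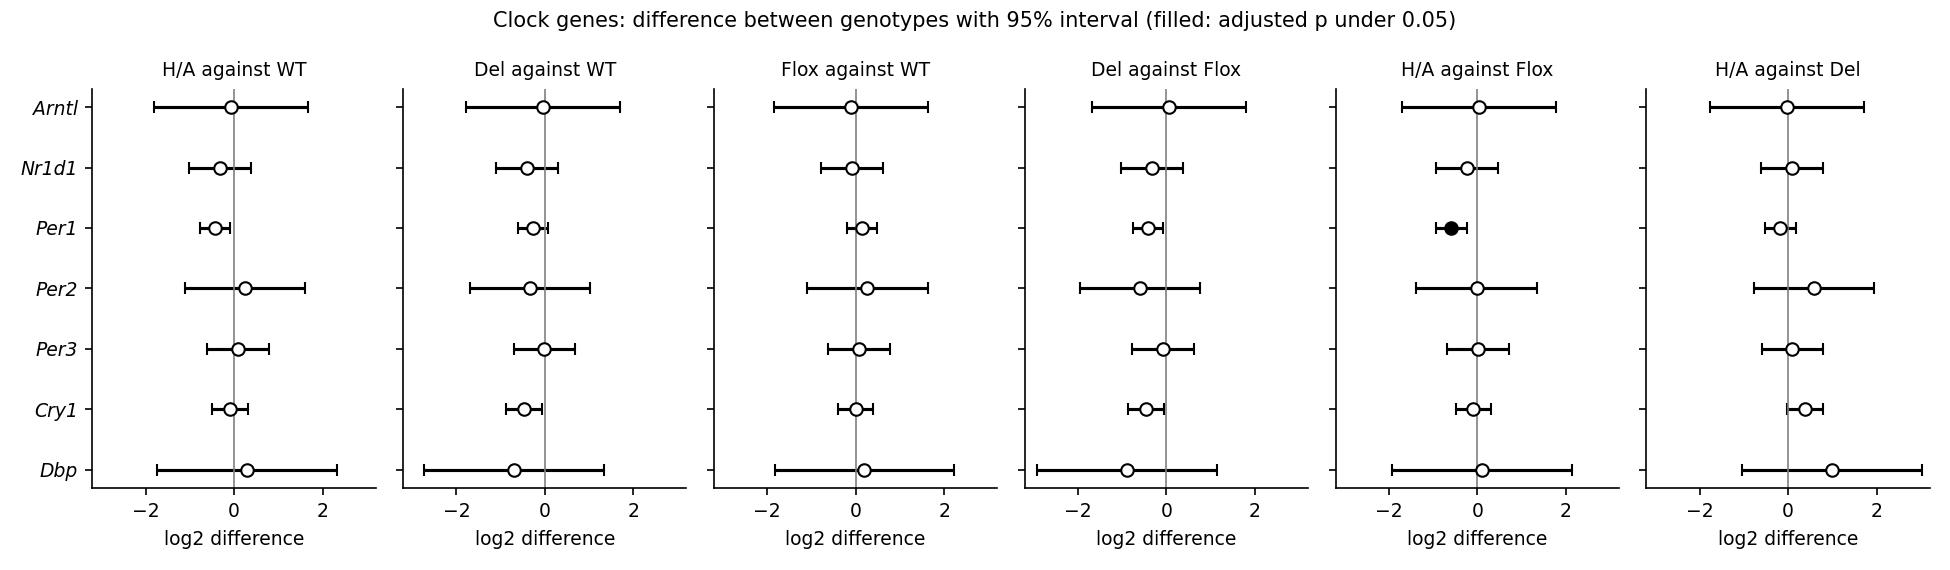
Log2 difference between genotypes for the 7 clock genes (rows) in each of 6 comparisons (panels), the group named first minus the second, with the 95% interval of the limma fit. The single filled point, with an adjusted p under 0.05, is Per1 in H/A against Flox at -0.58, and the intervals of Dbp, Arntl and Per2 are the widest.

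In order of their group means, Dbp ran H/A, Flox, WT, Del and Per2 ran Flox, H/A, WT, Del. Per3 ran H/A, Flox, WT, Del, with means only 0.10 apart, and Arntl ran WT, Del, H/A, Flox, also 0.10 apart. Nr1d1 ran WT, Flox, H/A, Del and Per1 ran Flox, WT, Del, H/A. For these 6 genes no neighbours in the order were apart by more than the larger of their SDs between mice. Cry1 ran Flox, WT, H/A, Del, and the step between H/A (8.22 ± 0.21) and Del (7.84 ± 0.36) exceeded that SD but not the threshold of the test (difference 0.38, adjusted p = 0.662).

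Of 14 other genes of the clock, 12 were tested. Casein kinase 1 delta, which phosphorylates period proteins and is encoded by Csnk1d, had 10.23, 10.45, 10.37 and 10.54 in H/A mice, 10.29, 10.16, 10.66 and 10.48 in Del mice, 9.60, 9.97, 9.78 and 9.69 in Flox mice and 9.63, 10.28, 9.81 and 9.87 in WT mice. All H/A and Del livers lay above all Flox livers, and WT replicate 2 overlapped with both mutants. Groups did not overlap for 6 of the 12 genes in H/A against Flox and 2 of 12 in Del against Flox. Over all genes, this share is given here only for H/A below Flox, at 19.5%. These counts therefore have no matching background and are not read as a result about clock genes. Csnk1d rose in H/A by 0.50 (adjusted p = 0.0476) and in Del by 0.50 (adjusted p = 0.0400) against WT, and by 0.63 and 0.64 against Flox (adjusted p = 0.00892 and 0.00766). Leaving out single arrays ended the call against WT in 12 of 16 cases for H/A (0.41 to 0.63 over all 16) and in 9 of 16 for Del (0.41 to 0.63). It was the 1 of 12 called higher against WT in H/A, where 7.08% of all genes were higher, and in Del, where 8.85% were. Macrophage markers were higher than in WT in 8 of 9 cases in H/A and 6 of 9 in Del, and mitosis genes in 9 of 10 in both, and the part of other cells in these differences was not tested.

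Cry2, the other cryptochrome gene, had 9.23, 9.11, 9.06 and 9.03 in H/A mice, 9.59, 9.47, 9.01 and 9.38 in Del mice, 9.68, 9.76, 9.84 and 9.60 in Flox mice and 9.65, 9.23, 9.60 and 9.65 in WT mice. The H/A livers lay below all Flox livers, as in 19.5% of all genes. The fall was 0.61 on the log2 scale (limma adjusted p = 0.0068). In H/A against Flox 4 of 12 fell, where 17.3% of all genes did. Csnk1d rose, where 15.9% did. Those that fell were Cry2, Cipc, whose protein inhibits the Clock protein (-0.57, adjusted p = 0.0267), Btrc (-0.31, adjusted p = 0.0403) and Npas2, the partner of Arntl (-0.32, adjusted p = 0.0497). Without scaling between arrays these 4 differences were 0.00 for Cry2, 0.02 for Cipc, 0.26 for Btrc and 0.23 for Npas2, and with the mean over probes Btrc was 0.03. Leaving out single arrays ended the Cipc call in 5 of 16 cases (-0.68 to -0.51 over all 16), the Btrc call in 11 (-0.34 to -0.28) and the Npas2 call in 13 (-0.39 to -0.28), and the Cry2 call in none of the 16. In Del against Flox Csnk1d rose, where 16.6% of all genes did, and 0 of 12 fell. In Flox against WT and H/A against Del 0 of 12 passed with limma, and 0 had an unadjusted p under 0.05.

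Of the 16 output genes tested, Elovl3, a fatty acid elongase gene known to cycle in liver, was the only one called against WT, in H/A and in Del. A count of 1 of 16 is not above the 10.04% and 13.2% of all genes called there. Elovl3 had 5.98, 4.67, 2.37 and 8.30 in H/A mice, 6.28, 6.57, 4.0 and 6.93 in Del mice, 5.98, 12.25, 12.08 and 10.62 in Flox mice and 10.82, 11.93, 9.99 and 11.35 in WT mice. All H/A and Del livers lay below all WT livers, and the share of all genes with this pattern is not given here. Flox replicate 1, at 5.98, lay within the range of both mutants. Elovl3, well above background on 3 of 4 H/A arrays, fell by 5.69 on the log2 scale in H/A (adjusted p = 0.0135) and fell by 5.08 in Del (adjusted p = 0.0182). Its r with Dbp was -0.086, and its value in WT replicate 2, where Dbp was lowest among WT livers, was 11.93.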

How the data were processed

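RNA of 16 mouse livers was measured on 1-colour Agilent arrays, 4 mice for each of 4 genotypes taken from the labels. Agilent Feature Extraction 11 and Partek are named in the submitters' processing notes, without their roles. The deposited value table holds log2 values for 60037 probes, and from the values themselves all 16 columns share nearly the same distribution (sorted columns differ by at most 0.0063), as quantile normalisation leaves them. The deposited scanner files hold spot intensity, background-subtracted and detrended per the file headers. For 6 samples the listed scanner file lies on another slide than the label gives (rank r with the value table -0.461 to 0.330), so detection flags came from the file at the slide and position of the label, which matched in all 16 (r = 1.0).

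Probes well above background on 4 or more of 16 arrays were kept, leaving 37851 probes, and the probe of the highest mean stood for its gene. The 31512 genes were fitted with limma 3.58.1 (R 4.3.3), 1 mean per genotype and moderated variance, with Benjamini-Hochberg adjustment over all genes and a threshold of 0.05. Correlations across livers used 100000 permutations, two-sided, with Python 3.11.15 and scipy 1.17.1. The fit was checked on simulated data.

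The text names all members, the other clock genes of a list, of further lists the 4 genes with the smallest p in a comparison, and the 6 genes most like or unlike Dbp and most like Arntl. Other values of list genes with Dbp, and the per-array values shown for Gys2 and Elovl3, were chosen after their values were seen. Some genes that these rules name are not reported here. Members and lists were chosen with earlier results of these data known. Alternatives were scanner signals scaled to the 75th percentile (paired by label or as listed), no scaling, normexp with an offset of 50, other filters, the mean over probes, the slide as a block, only the groups compared, trend and robust moderation, array weights, each array left out and, chosen after seeing the data, each slide alone, Dbp as the x axis, the second probes and tied ranks for dim Arntl values. Precision is limited by the number of arrays.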

Additional observations from a re-analysis of the deposited data

Results flagged for a closer look

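In 9 of 76 groups of 4 arrays (19 clock genes in 4 genotypes), a single liver lay far from the other 3. Its gap to the nearest liver, as a share of the range, exceeded the 95% critical value of Dixon's test for 4 values. Chance gives about 5% of groups, 1 in 20. WT replicate 2 accounts for 5 of them. There Dbp was 8.40, against 11.42 to 11.74 in the other WT livers, Per2 was 6.22, against 8.26 to 8.66, and Per3 was 5.28, against 6.37 to 6.5. Cry2 was 9.23, against 9.60 to 9.65, and Rora, the gene of the activator ROR alpha, was high at 8.05, against 7.53 to 7.60.

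Nr1d1 was 7.90 in Flox replicate 4, against 9.18 to 9.23 in the other Flox livers, and 8.56 in WT replicate 3, against 9.07 to 9.12 in the other WT livers. In Del, Npas2 was 7.79 in replicate 3, against 8.02 to 8.04 in the others, and Csnk1e, a casein kinase 1 gene, was 6.12 in replicate 1, against 6.28 to 6.30. The array of WT replicate 2 had 57.2% of its spots well above background. Its array weight, 0.36, was the lowest, against 0.386 to 2.39 on the other 15. These weights entered only the alternative with array weights, not the main fit. Del replicate 1, the lowest liver for Dbp (6.75) and Per2 (5.49), did not pass this rule for either gene.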

How the results depend on the processing

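Over the alternatives other than left-out arrays, the count of clock genes called stayed at 0 in Del against WT, Flox against WT and H/A against Del, of 7 tested, or of 6 with detection on all 16 arrays, where Arntl is not tested. In H/A against WT it was 0 except with array weights, which called 1 (Per1, -0.53). In Del against Flox it was 2 (Per1 and Cry1) with normexp, with detection on all 16 arrays and with trend and robust moderation, and 0 otherwise. In H/A against Flox the 1 call (Per1) became 0 with scanner files as listed (-0.13), with no scaling (0.07), with the mean over probes (-0.38) and within slide 1 (-0.59) or slide 2 (-0.65), where single arrays of a group take their spread from the others. Leaving out each array gave 0 to 1 in H/A against WT, Del against WT and Del against Flox, 0 to 0 in Flox against WT and H/A against Del, and 1 to 1 in H/A against Flox. Differences that turned in H/A against Flox without scaling were 0.073 for Per1, 0.231 for Npas2, 0.001 for Cry2, 0.257 for Btrc and 0.020 for Cipc, and Btrc was 0.027 with the mean over probes. Without scaling the median of all genes moved from -0.14 to 0.31 there.

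A sign change of a difference that was called under neither setting was not counted as a reversal. Among the clock genes tested there were 78 such changes in 528 values over the planned and added alternatives and 67 in 665 values over left-out arrays. The Csnk1d call against WT was lost in 7 such alternatives for H/A and 6 for Del, and the Npas2 call in H/A against Flox in 8. Over all genes the calls in H/A against WT ran from 5 with scanner files as listed to 13454 with array weights, and from 1451 to 8020 over left-out arrays, against 3164. Those in Del against WT ran from 0 to 6380, in Del against Flox from 0 to 12887 and in H/A against Flox from 4 to 15412, against 4166, 10951 and 10458. No paired analysis was possible because the labels give no replicate numbers that groups share. The cause of these changes was not tested. The Arntl probe was above background on only 9 of 16 arrays, which limits its differences.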
